A study of Mus musculus with 6 samples.

Results

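The respiratory chain genes of cardiac macrophages were described in mice without legumain (Lgmn KO) and in wild-type mice (WT). Members were the rows of the deposited gene table whose symbols belong to complex I (Nduf names and mt-Nd names), complex II (Sdha to Sdhd), complex III (Uqcr names and mt-Cytb), complex IV (Cox4 to Cox8 names and mt-Co names) or the ATP synthase, complex V (Atp5 names and mt-Atp names), without pseudogenes named -ps. The rule gave 105 of 34745 rows, of which 92 were nuclear and 13 were encoded in the mitochondrial genome. Messenger RNA was counted per gene in 3 Lgmn KO libraries (replicates 1, 2 and 4) and 3 WT libraries (replicates 1, 2 and 3). All 6 came from hearts of 8-week-old C57BL/6 mice and, by the series' design, were taken after myocardial infarction. The protocol names permanent ligation of the left anterior descending coronary artery or a sham operation without saying which each animal had. The labels give the Lgmn KO genotype without the allele or the way it was made. The sort used antibodies to CD45, CD64 and CD11b together with a stain against dead cells. Nothing in the labels says that each library is a separate animal, so p-values here measure the spread between these libraries, which may be technical.

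The respiratory chain passes electrons from NADH (complex I) and succinate (complex II) through ubiquinone, complex III and cytochrome c to oxygen at complex IV, and the proton gradient this builds drives ATP synthesis at complex V. All but complex II hold subunits from both genomes: the mitochondrial genome is transcribed as long strands by its own polymerase and then cut into single messages, while nuclear subunits are transcribed gene by gene. In macrophages, the chain is known to be rewired with activation: succinate oxidation by complex II and electron flow back into complex I are a known source of reactive oxygen in inflammatory states, and oxidative phosphorylation is associated with reparative states.

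Some nuclear respiratory chain genes are known targets of the transcription factors Nrf1, Gabpa (an ETS factor) and Yy1, and promoters of some members are shown as examples for that reason. Cox7a2l and Ndufaf7, which are described below, are not among them. RefSeq promoters (GRCm38.p6, from 250 bases before to 50 after the start) were found for 76 of the 92 nuclear members, 82 promoters in all. The Nrf1 motif CGCANGCG, searched on both strands, was in 40.2% of them against 8.21% of all 32851 promoters of the same length. The ETS motif CCGGAAG was in 20.7% against 8.86%, the Yy1 motif AAGATGGC in 14.6% against 2.75%, and at least 1 of the 3 in 62.2% against 17.6%. A match is a run of letters and not a measured binding site. The 120 bases before the start are printed from 5′ to 3′, with motif matches in capitals. Sdha, Sdhd, Uqcrh, Cox6a1 and Atp5k encode subunits of broad expression, and Cox7a1 and Cox8b encode the heart and muscle forms of their complex IV subunits.
Sdha, chr13:74350241-74350360, minus strand: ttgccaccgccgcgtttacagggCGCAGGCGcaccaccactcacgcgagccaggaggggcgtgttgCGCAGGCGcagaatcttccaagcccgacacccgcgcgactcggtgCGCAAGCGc
Sdhd, chr9:50603850-50603969, minus strand: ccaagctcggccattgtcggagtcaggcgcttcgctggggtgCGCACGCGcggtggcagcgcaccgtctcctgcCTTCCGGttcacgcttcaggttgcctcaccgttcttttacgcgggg
Uqcrh, chr4:116075071-116075190, minus strand: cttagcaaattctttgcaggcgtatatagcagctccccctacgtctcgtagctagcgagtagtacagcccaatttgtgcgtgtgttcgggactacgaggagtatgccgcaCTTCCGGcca
Cox6a1, chr5:115348959-115349078, minus strand: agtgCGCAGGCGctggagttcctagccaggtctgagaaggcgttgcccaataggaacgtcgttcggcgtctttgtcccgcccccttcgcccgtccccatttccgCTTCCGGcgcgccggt
Atp5k, chr5:108434400-108434519, minus strand: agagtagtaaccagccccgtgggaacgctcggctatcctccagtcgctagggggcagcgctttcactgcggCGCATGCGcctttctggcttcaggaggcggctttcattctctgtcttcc
Cox7a1, chr7:30184051-30184170, plus strand: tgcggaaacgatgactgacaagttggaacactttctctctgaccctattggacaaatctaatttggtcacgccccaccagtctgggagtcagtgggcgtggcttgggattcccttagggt
Cox8b, chr7:140900447-140900566, minus strand: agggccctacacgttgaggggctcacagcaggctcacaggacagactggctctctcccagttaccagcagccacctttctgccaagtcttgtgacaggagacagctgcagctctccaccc
The Sdha window holds 3 Nrf1 matches, 2 of them with the letters CGCAGGCG and the one nearest the start with CGCAAGCG. Sdhd and Cox6a1 hold an Nrf1 and an ETS match each (CTTCCGG on the printed strand), Uqcrh an ETS match and Atp5k an Nrf1 match. The letters searched are not in the Cox7a1 and Cox8b windows. The genes shown are picked examples, and whether broad and muscle forms differ in motifs was not tested. By the gene models of the deposited table, Sdha runs to 74350280, Cox6a1 to 115348981 and Atp5k to 108434448, so that their starts lie inside the windows shown, which count back from the RefSeq start. The table's Uqcrh starts at the last printed base, and the other 3 genes start right after it.

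No respiratory chain gene was called different between Lgmn KO and WT by edgeR. Of the 105 members, 98 had enough counts to be tested (85 nuclear and 13 mitochondrial), and edgeR's quasi-likelihood test with Benjamini-Hochberg adjustment over all 12546 tested genes called 0 of the 98, against 0.789% of all tested genes. At an unadjusted p below 0.05, 5 of 98 members passed (5.10%), against 17.5% of all tested genes. In 6 members (6.12%) the 3 Lgmn KO libraries did not overlap the 3 WT libraries, 2 of them higher and 4 lower in Lgmn KO, against 23.7% of all tested genes. DESeq2's Wald test called 2 members, Sdha and Cox7a2l, against 6.41% of all the genes it tested. limma with sample weights called 0 members. In the authors' deposited table, 0 of the 102 members with a q-value were below 0.05, and the lowest q-value was 0.206, that of mt-Nd3.

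The changes were small as well as uncalled. The fitted log2 fold change (Lgmn KO against WT) was positive in 48 members and negative in 50, with a median of -0.0025, beside -0.0021 over all tested genes. Nuclear members had a median log2 fold change of 0.0037 and mitochondrial members of -0.07. For 87 of the 98 (88.8%) the 95% interval lay inside 1.5-fold in either direction, against 58.9% of all tested genes. The standard error of the log2 fold change had a median of 0.107 in the members and 0.136 over all tested genes. The 11 members whose intervals reached past 1.5-fold were Ndufaf2, Ndufaf4, Ndufaf6, Ndufaf7, Ndufb4, Cox7a1, Cox7c, Atp5g1, Atp5g2, Atp5l and Atp5s, and for these the intervals do not exclude a change of that size.

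**Figure D1:**
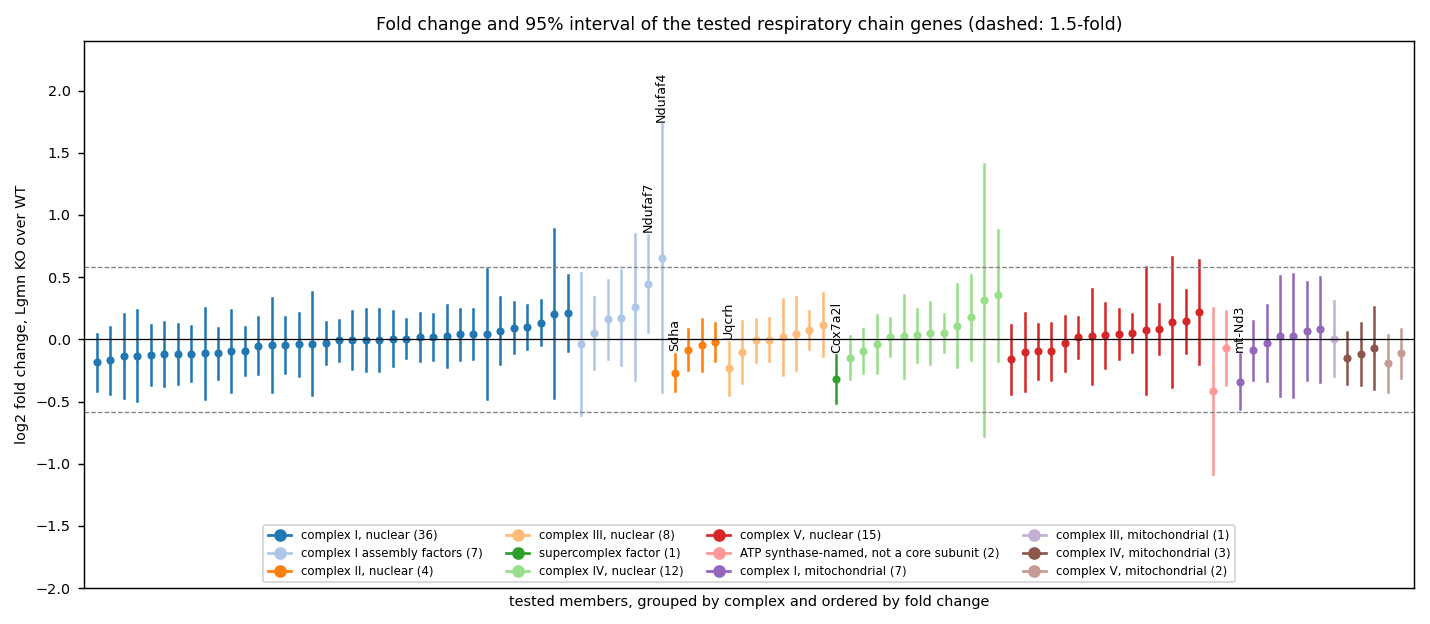
Fitted log2 fold change between Lgmn KO and WT (vertical axis, points, positive where Lgmn KO is higher) with its 95% interval (lines) for the 98 tested members, grouped by complex (colour) and ordered by fold change within each group. Dashed lines mark 1.5-fold, and 87 of the 98 intervals lie between them. The named genes are the 5 with an unadjusted p below 0.05 and Ndufaf4, which has the largest positive fold change.

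Library depth was 19546253 to 24086976 counts. Lgmn itself was 78.6, 88.4 and 83.4 CPM (CPM are counts scaled to library size, here with TMM factors) in Lgmn KO and 2203, 2690 and 2276 CPM in WT, a log2 fold change of -4.84 (SE 0.11, edgeR adjusted p = 3.23e-06), in the direction the labels give. Over all genes, 99 were called, 39 higher and 60 lower in Lgmn KO. That count moved with single libraries: it was 639 without WT replicate 1 and 6 to 35 without any 1 of the others. The count of members called was 0 in each of these 6 fits. As these are bulk samples, fewer cells of a type and less RNA per cell cannot be told apart.

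Levels between genes are compared in FPKM (counts scaled by gene length and library size, as deposited). Mitochondrial members had a median of 1250.5 FPKM and nuclear members of 20.3 FPKM. Among nuclear members the highest was Cox8a with 282 FPKM, and 13 mitochondrial genes ran from 6.26 FPKM (mt-Nd6) to 5097 FPKM (mt-Co1). Summed over genes, the mitochondrial members took 1.75%, 1.85% and 1.90% of each Lgmn KO library and 1.61%, 2.11% and 2.10% of each WT library. The mean share was 1.83% ± 0.0761 (SD, n = 3) in Lgmn KO and 1.94% ± 0.287 (SD, n = 3) in WT, and the Lgmn KO libraries lay between WT replicate 1 and the other two WT libraries. Nuclear members summed to 6489, 5739 and 5781 CPM in Lgmn KO and to 6109.9, 6157 and 5870.5 CPM in WT, again with overlapping groups.

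**Figure D2:**
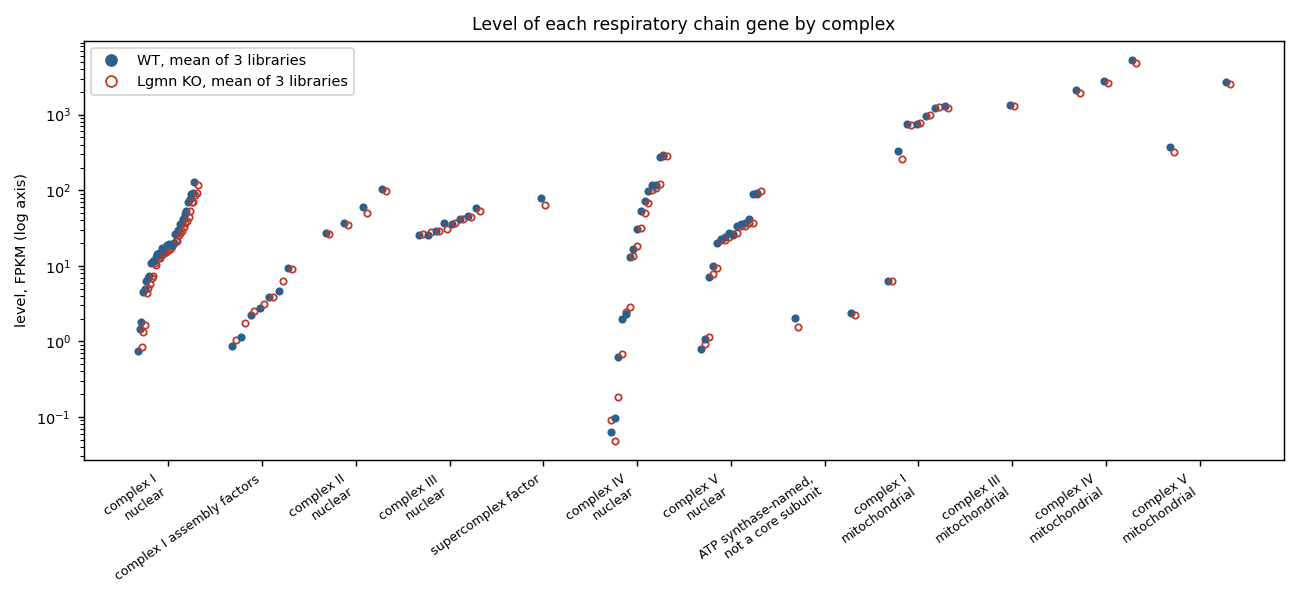
Mean level of each member (FPKM, log axis) in the 3 WT libraries (filled blue) and the 3 Lgmn KO libraries (open red), by complex and genome. A group mean of 0 is not drawn, which leaves out Cox4i2, Cox7b2 and Cox8c and the WT mean of Cox8b. The mitochondrial genes run from 6.26 to 5097 FPKM, and the highest nuclear mean over all libraries is 282 FPKM (Cox8a).

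Complex I, which oxidises NADH, has 36 nuclear subunit genes by the rule, and all 36 were tested. Of these, 14 lay above 0 and 22 below 0 in log2 fold change; their median was -0.02, and they had a range from -0.19 (Ndufv2) to 0.21 (Ndufs5). None passed an unadjusted p of 0.05. Ndufv2, an iron-sulphur subunit of the NADH-oxidising module, had 41.6, 34.8 and 35.1 CPM in Lgmn KO and 43.2, 44.1 and 39.5 CPM in WT (edgeR adjusted p = 0.380). Only Lgmn KO replicate 1 lay within the WT range. Ndufs3, a core subunit of the ubiquinone-reducing module, had 47.4, 41.7 and 44.8 CPM in Lgmn KO and 41.5, 40.02 and 40.5 CPM in WT. It was the one nuclear complex I subunit whose groups did not overlap, with a log2 fold change of 0.13 (SE 0.08, edgeR adjusted p = 0.421).

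The nuclear complex I subunits of highest level were Ndufa1 and Ndufa6, both accessory subunits. Ndufa1 was at 117 ± 15.8 FPKM in Lgmn KO and 129 ± 2.43 FPKM in WT (SD, n = 3), and Ndufa6 at 92.1 ± 13.2 and 93.2 ± 1.72 FPKM. Both differed between groups by less than the spread in Lgmn KO. The lowest was Ndufb4 with 0.797 FPKM, from 20 to 29 counts in each library. Deposited FPKM within the complex thus ran from 0.797 to 123. These levels rest on the deposited gene lengths and on how reads were given to genes. They were not set against the fixed numbers of the protein subunits.

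Assembly factors of complex I, which help put the complex together and are not part of it, had 6 positive and 1 negative log2 fold changes among 7 genes, with a median of 0.17. Ndufaf7, a methyltransferase that acts early in assembly, had 17.9, 12.4 and 13.2 CPM in Lgmn KO and 11.7, 10.5 and 9.67 CPM in WT. All 3 Lgmn KO libraries were above all 3 WT libraries, replicate 1 most. The log2 fold change was 0.45 (SE 0.17, unadjusted p = 0.030, edgeR adjusted p = 0.229). Ndufaf4, another assembly factor, had the largest positive log2 fold change of all members, 0.65, with a standard error of 0.46 (edgeR adjusted p = 0.523). Its values were 15.9, 12.6 and 6.60 CPM in Lgmn KO and 12.1, 3.56 and 6.67 CPM in WT, and the groups overlapped. Ndufaf2 was the most abundant factor per length, at 9.22 FPKM, and its log2 fold change was -0.04 (edgeR adjusted p = 0.962).

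Complex II, which oxidises succinate and is the one complex built from nuclear genes alone, had 4 negative log2 fold changes among 4 genes, with a median of -0.07. Sdha, the flavoprotein subunit that holds the succinate-binding site, had the largest difference. Its values were 273, 269 and 285 CPM in Lgmn KO and 342, 316 and 338 CPM in WT. The groups did not overlap, and the highest Lgmn KO library was below the lowest WT library. The log2 fold change was -0.27 (SE 0.065), a fold of 0.748 to 0.923 at 95%, with an unadjusted p of 0.00386 and an edgeR adjusted p of 0.0976, the smallest of the members. DESeq2 gave an adjusted p of 0.0292. Over the other settings tried, the edgeR and limma adjusted p of Sdha ran from 0.0549 to 0.461.

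The other complex II subunits differed less between groups. Sdhd, a membrane anchor and the most abundant of the 4 per length (98.5 ± 0.81 FPKM in Lgmn KO and 105 ± 5.74 FPKM in WT, SD, n = 3), had a log2 fold change of -0.09 (edgeR adjusted p = 0.594). Sdhb, the iron-sulphur subunit, and Sdhc, the other anchor, had log2 fold changes of -0.05 and -0.02. Summed over the 4 genes, complex II stood at 605, 580.4 and 607 CPM in Lgmn KO and at 674, 660.1 and 663 CPM in WT, and these sums did not overlap. Without Sdha they were 331, 311 and 322 CPM in Lgmn KO and 332, 344 and 325 CPM in WT, and overlapped.

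Complex III, which passes electrons from ubiquinol to cytochrome c, had 4 positive and 4 negative log2 fold changes among its 8 nuclear genes, with a median of 0.01. Uqcrh, the hinge protein beside cytochrome c1, had 69.9, 66.7 and 63.5 CPM in Lgmn KO and 69.2, 84.6 and 81.5 CPM in WT. Lgmn KO replicate 1 and WT replicate 1 were about level, and the other Lgmn KO libraries were below the other WT ones. Its log2 fold change was -0.23 (SE 0.09, unadjusted p = 0.037, edgeR adjusted p = 0.253). Uqcrb, of highest level per length, was at 53.6 ± 7.83 FPKM in Lgmn KO and 58.0 ± 1.95 FPKM in WT (SD, n = 3). Uqcrfs1, the Rieske iron-sulphur protein, followed with 44.5 ± 1.66 and 45.2 ± 2.07 FPKM. Uqcrc1, a core protein, had a log2 fold change of 0.07 (edgeR adjusted p = 0.627). All 8 intervals lay inside 1.5-fold.

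Complex IV, cytochrome c oxidase, is known for subunits that come in tissue forms, and these libraries held the broadly expressed form of each pair. Of its 19 nuclear genes, 12 were tested, with 9 log2 fold changes above 0 and 3 below 0 and a median of 0.04. Cox4i1 stood at 94.7 to 106 FPKM over the 6 libraries, while Cox4i2, the lung and low-oxygen form, had 0 counts. Cox7b2 and Cox8c, known as testis forms, had 0 counts as well. A count of 0 allows a level of up to 0.125 to 0.153 CPM in a library of this depth (3 counts, counting error only).

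The heart and muscle forms were at or near the floor. Cox6a2 reached 0.427 to 0.951 FPKM, 0.353% to 0.900% of the sum with Cox6a1, which stood at 104 to 143 FPKM. Cox8b had 2 counts in all, both in Lgmn KO libraries, beside 270.4 to 292 FPKM for Cox8a. Cox7a1 was the highest of the muscle forms, with 1.48 to 4.59 FPKM or 2.08% to 6.05% of the sum with Cox7a2. Its values were 1.68, 0.613 and 0.848 CPM in Lgmn KO and 0.973, 1.02 and 0.542 CPM in WT, with overlapping groups and a log2 fold change of 0.32 (SE 0.47). Cox6b2, a testis form, had 3 to 15 counts in each library, and Ndufa4l2, the low-oxygen partner of the complex IV subunit Ndufa4, had 0 to 4. None of Cox6a2, Cox6b2, Cox8b and Ndufa4l2 passed the filter on low counts, so no test was made for them.

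**Figure D3:**
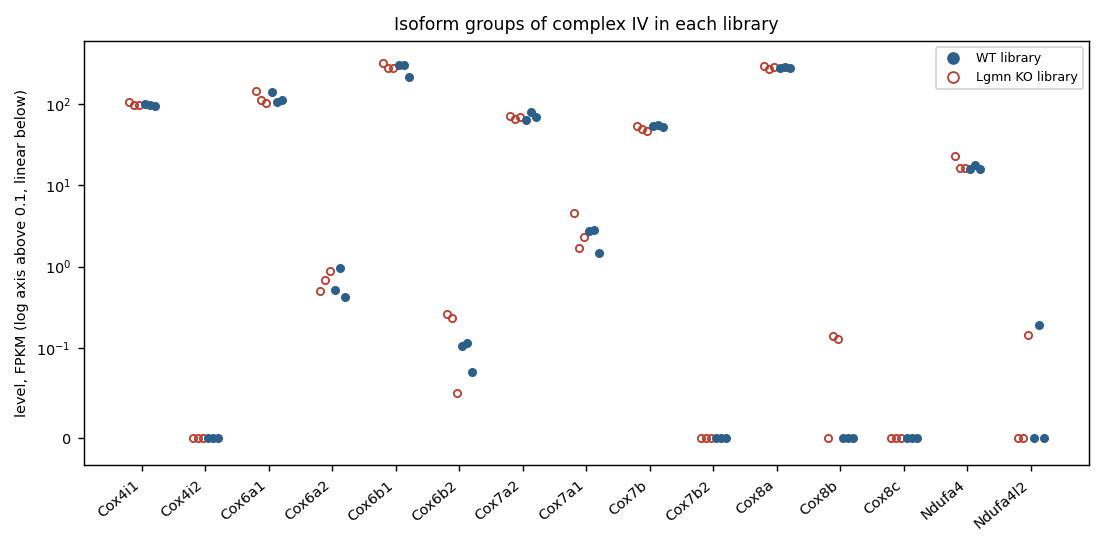
Level of each complex IV isoform (FPKM, log axis above 0.1 and linear below) in every WT (filled blue) and Lgmn KO (open red) library. Cox4i1, Cox6a1, Cox6b1, Cox7a2, Cox7b and Cox8a lie between 46.9 and 323 FPKM and Ndufa4 between 15.8 and 23.1, while their partners lie at 0 to 4.59 FPKM.

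No tested nuclear subunit of complex IV had an unadjusted p below 0.05. Cox8a, a structural subunit, had 160.0, 147 and 157 CPM in Lgmn KO and 149, 156 and 153 CPM in WT, a log2 fold change of 0.02 (SE 0.06) with a 95% interval of 0.913-fold to 1.13-fold. Cox6b1, which faces the intermembrane space, was of like level per length, at 291 ± 27.4 FPKM in Lgmn KO and 273 ± 51.9 FPKM in WT (SD, n = 3), and its spread within a group was larger than the difference. Cox5a, a matrix-facing subunit, was lower in every Lgmn KO library (75.8, 70.7 and 74.6 CPM) than in every WT library (82.9, 86.1 and 76.0 CPM), by a log2 fold change of -0.15 (SE 0.07, edgeR adjusted p = 0.361). Ndufa4, named for complex I and now counted with complex IV, had 62.1, 43.3 and 44.4 CPM in Lgmn KO and 42.3, 47.8 and 42.4 CPM in WT, and its higher mean in Lgmn KO came from replicate 1. Cox7c and Cox7b had log2 fold changes of 0.35 (SE 0.23) and -0.10 (SE 0.07).

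Cox7a2l, a relative of Cox7a2 that joins complexes III and IV into supercomplexes, had the second smallest p of the members. C57BL/6 mice are known to carry a short, less stable form of this protein. Its values were 78.4, 71.3 and 67.7 CPM in Lgmn KO and 85.2, 95.9 and 90.4 CPM in WT, with no overlap. The log2 fold change was -0.32 (SE 0.08), a fold of 0.700 to 0.915 at 95%, with an unadjusted p of 0.00526 and an edgeR adjusted p of 0.112. DESeq2 gave an adjusted p of 0.0410, and over the other settings tried the adjusted p ran from 0.0549 to 0.520. Cox7a2, the complex IV subunit it resembles, had a log2 fold change of -0.04 (SE 0.10, edgeR adjusted p = 0.884). Whether the changes of Cox7a2l and Cox7a2 differ was not tested.

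Complex V, the ATP synthase, had 10 positive and 5 negative log2 fold changes among its 15 nuclear genes, all tested, with a median of 0.03 and no unadjusted p below 0.05. Atp5a1 and Atp5b, the 2 subunits of the catalytic head, were the most abundant per length. Atp5a1 had 581, 493 and 480.5 CPM in Lgmn KO and 486, 502 and 479 CPM in WT, and Atp5b had 686, 590.4 and 608 CPM and 646, 624 and 563 CPM. In both genes Lgmn KO replicate 1 was the highest of the 6 libraries and the rest overlapped. Their log2 fold changes were 0.08 and 0.04 (SE 0.09 for each).

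Among the nuclear genes of complex V the smallest p was that of Atp5k (subunit e, in the membrane part where synthase dimers form), with 37.1, 28.9 and 27.8 CPM in Lgmn KO and 34.9, 35.8 and 34.1 CPM in WT (log2 fold change -0.16, edgeR adjusted p = 0.546). Lgmn KO replicates 2 and 4 were below all WT libraries and replicate 1 was above them. Atp5j2, subunit f of the same part, had a log2 fold change of 0.14 (edgeR adjusted p = 0.553). Atp5s and Atp5sl carry the family name and are not core subunits. Atp5s had the largest negative log2 fold change of the members, -0.42, with a standard error of 0.29 and values of 1.79 to 2.76 CPM in Lgmn KO and 2.08 to 3.54 CPM in WT. Atp5sl was at -0.07 (edgeR adjusted p = 0.828).

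The 13 mitochondrially encoded genes had 8 negative and 5 positive log2 fold changes, all inside 1.5-fold at 95%. Per length, mt-Co1, the catalytic subunit of complex IV, was the highest with 5097 FPKM and held 40.2% to 43.9% of all mitochondrial counts in each library. mt-Co2 (2734 FPKM) and mt-Atp8 (2624 FPKM) followed and did not differ beyond their spread, then mt-Co3 (2031 FPKM). mt-Cytb, mt-Nd1 and mt-Nd4l lay together between 1250.5 and 1325 FPKM. mt-Nd4, mt-Nd5 and mt-Nd2 lay between 741 and 984 FPKM, then mt-Atp6 (347 FPKM) and mt-Nd3 (295 FPKM). mt-Nd6, the one member on the other strand of the mitochondrial genome, was at 6.26 FPKM. The table does not say whether strand was kept in counting, so reads of the 2 strands over mt-Nd6 cannot be told apart.

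mt-Atp8 and mt-Atp6 share a single message in which their reading frames overlap by 43 bases, 21.1% of mt-Atp8 and 6.31% of mt-Atp6, so reads in this stretch cannot be given to either. It is printed from the GRCm38 reference, where the capitals mark the start codon of mt-Atp6.
mt-Atp8 and mt-Atp6 overlap, chrMT:7927-7969, plus strand: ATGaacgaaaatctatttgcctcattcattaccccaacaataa
Per length mt-Atp8 was 2624 FPKM and mt-Atp6 347 FPKM in spite of the shared message. A nuclear copy of mt-Atp6 bears on this value. Gm10925 on chromosome 1 (24613974 to 24614651) is identical to mt-Atp6 over 678 bases and was given 25254 counts over the 6 libraries beside 30225 for mt-Atp6, 45.5% of their sum. With the copy added, mt-Atp6 had 371 to 473 CPM over 681 bases, beside 491 to 593 CPM for mt-Atp8 over 204 bases. The sum thus stayed below mt-Atp8 per length. The sources used here do not say how reads were shared between copies, and levels of these genes are uncertain for that reason.

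Other rows of the same chromosome 1 stretch (24611535 to 24615565) copy mt-Nd4, mt-Nd4l, mt-Nd3, mt-Co3 and mt-Co2 at an identity of 99.7% to 100%. They took 6.82% (Gm28439, mt-Nd4), 11.8% (Gm10222, mt-Nd4l), 9.64% (Gm28438, mt-Nd3), 11.4% (Gm28437, mt-Co3) and 10.8% (Gm28661, mt-Co2) of the sum of copy and gene. None of these rows was called, and their log2 fold changes ran from -0.10 (Gm28438) to 0.21 (Gm10222). Gm10925 had 234, 205 and 154 CPM in Lgmn KO and 215, 182 and 204 CPM in WT, and mt-Atp6 had 213, 232 and 217 CPM in Lgmn KO and 217, 269.9 and 269 CPM in WT. WT replicate 1 was thus the highest WT library for the copy and the lowest for the gene. Their sum stood at 447, 437 and 371 CPM in Lgmn KO and 432, 452 and 473 CPM in WT.

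mt-Nd3, a membrane subunit of complex I, had the smallest p of the mitochondrial genes. Its values were 85.6, 101 and 84.9 CPM in Lgmn KO and 107, 115 and 122 CPM in WT, with no overlap. The log2 fold change was -0.34 (SE 0.09), a fold of 0.680 to 0.920 at 95%, with an unadjusted p of 0.00752 and an edgeR adjusted p of 0.132. With its nuclear copy added, the values were 97.8, 113 and 93.4 CPM in Lgmn KO and 121, 125 and 132 CPM in WT, still without overlap. The next smallest p-values were those of mt-Atp6 (log2 fold change -0.19, edgeR adjusted p = 0.370) and mt-Co3 (-0.15, edgeR adjusted p = 0.447).

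WT replicate 1 stood apart from the other WT libraries in the mitochondrial genes. It was the lowest WT library in 12 of the 13, at 0.601 (mt-Nd4l) to 1.14 (mt-Nd6) times the mean of WT replicates 2 and 3, with a median of 0.783. mt-Nd4l, mt-Nd4 and mt-Nd5, neighbours on the mitochondrial genome, were the lowest, at 0.601 to 0.645 times. mt-Nd5, a proton-pumping subunit of complex I, had 963 CPM in WT replicate 1 and 1548 and 1581 CPM in the other WT libraries, with 1322, 1449.6 and 1556 CPM in Lgmn KO. mt-Co1 had 7336, 7423 and 7914 CPM in Lgmn KO and 6919, 8953 and 8725 CPM in WT, so that all Lgmn KO libraries lay between WT replicate 1 and the other WT libraries. Without WT replicate 1, 12 of the 13 were negative in log2 fold change (median -0.19), and 7 had an unadjusted p below 0.05, in a fit where 20.3% of all tested genes passed that threshold. None of the 13 was called by edgeR in that fit, where the lowest adjusted p was 0.0643, that of mt-Atp6. Without any 1 of the other libraries the median ran from -0.0984 to 0.0044.

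**Figure D4:**
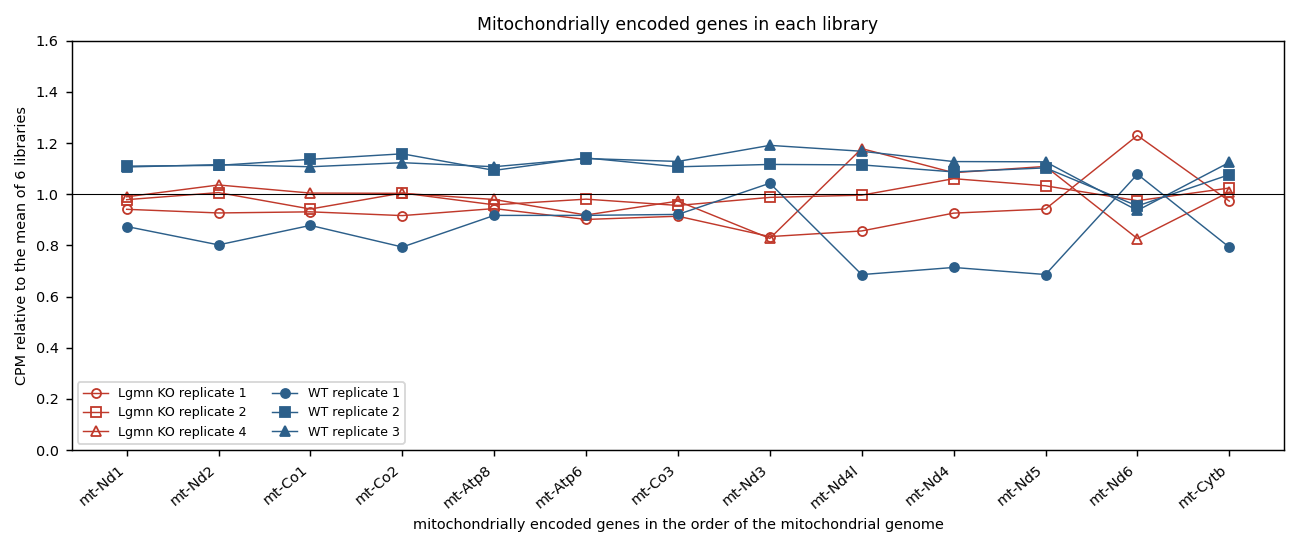
CPM of each mitochondrially encoded gene relative to its mean over the 6 libraries (vertical axis), in genome order, for Lgmn KO (open red) and WT (filled blue) libraries, 1 line per library. WT replicate 1 (filled circles) is the lowest WT library in 12 of 13 genes and is lowest at mt-Nd4l, mt-Nd4 and mt-Nd5.

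Lgmn KO replicate 1 stood apart in the nuclear members. Of the 85 tested nuclear members, 45 had their highest value of all 6 libraries there, and in 70 of the 85 (82.4%) it was the highest of the 3 Lgmn KO libraries, against 35.6% of all tested genes. The median log2 ratio of replicate 1 to the other Lgmn KO libraries was 0.20 in the nuclear members and -0.0036 over all tested genes. By length, this ratio was 0.16 in the 512 tested genes shorter than 1000 bases and -0.0074 in the 12034 longer ones. In the nuclear members it was 0.16 in the 17 shorter and 0.20 in the 68 longer genes. The part of gene length in the result was not tested. The shift was not confined to the members. Mitochondrial ribosomal proteins summed to 1981, 1746 and 1792 CPM in Lgmn KO replicates 1, 2 and 4, and subunits and carriers of other names to 282, 229 and 220 CPM. Replicate 1 was the lowest Lgmn KO library in the sums of nuclear regulators (423, 464 and 429 CPM) and of ATP export and proton leak (1508, 1650 and 1677 CPM). Nuclear subunits are here the nuclear members without the complex I assembly factors, Cox7a2l, Atp5s and Atp5sl. Their median log2 fold change was -0.07 without Lgmn KO replicate 1 and -0.0015 with it. Over all 85 tested nuclear members, in all 6 libraries, the median was 0.0037. No member was called without Lgmn KO replicate 1. In that fit 10 of 99 tested members had an unadjusted p below 0.05, a smaller share than the 14.1% of all tested genes. All 10 log2 fold changes were negative, among them Cox7a2l (-0.37, edgeR adjusted p = 0.156), Sdha (-0.25, edgeR adjusted p = 0.260), Atp5k and Ndufv2. The libraries that stood apart thus differed between the genomes: Lgmn KO replicate 1 was the highest of 6 in 1 mitochondrial gene, mt-Nd6.

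**Figure D5:**
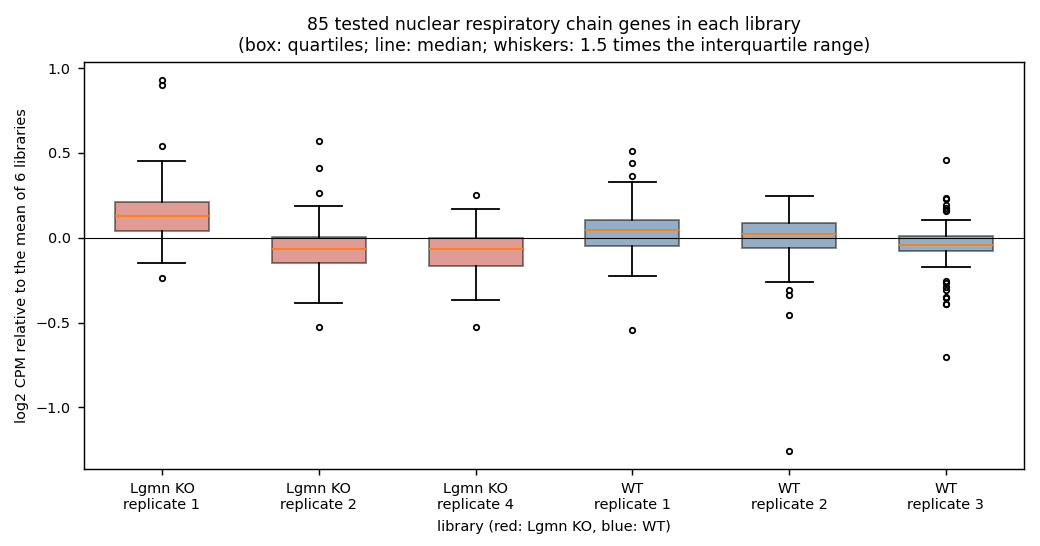
log2 CPM of the 85 tested nuclear members relative to each gene's mean over the 6 libraries (vertical axis), by library. Boxes span the quartiles with the median as a line, whiskers reach 1.5 times the interquartile range, and circles are genes beyond it. The median is 0.13 in Lgmn KO replicate 1 and between -0.07 and 0.04 in the other libraries.

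Genes that serve the chain without matching its names were counted next, and none of those tested was called. Among 41 tested assembly factors of other names, 16 had a positive and 25 a negative log2 fold change, and 2 had an unadjusted p below 0.05. These were Sdhaf4, a complex II assembly factor (8.98, 7.05 and 4.95 CPM in Lgmn KO and 4.77, 4.53 and 4.08 CPM in WT, log2 fold change 0.65, edgeR adjusted p = 0.210), and Cmc2, a complex IV assembly factor (-0.75, edgeR adjusted p = 0.213). Pet117, also in the list of assembly factors, did not pass the filter on low counts and was not tested. It had 7.10, 8.89 and 0.0471 CPM in Lgmn KO and 0.0417 to 0.0486 CPM in WT. Lgmn KO replicate 4 was thus near the WT libraries, unlike replicates 1 and 2. Among 77 mitochondrial ribosomal proteins, which build the mitochondrial subunits, 41 were positive and 36 negative. Mrpl46 had the smallest p of these, with 17.1, 16.5 and 18.8 CPM in Lgmn KO and 14.3, 13.3 and 13.1 CPM in WT (0.37, edgeR adjusted p = 0.142), and Mrps18a followed (0.21, edgeR adjusted p = 0.240).

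In the tricarboxylic acid cycle, which feeds complexes I and II, 8 of 14 genes were positive and 6 negative, led by Idh2 (0.23, edgeR adjusted p = 0.221) and Idh3a (-0.17, edgeR adjusted p = 0.386). Of 12 genes of coenzyme Q synthesis 6 were positive and 6 negative, led by Coq2 (0.37, edgeR adjusted p = 0.198) and Coq10b (0.16, edgeR adjusted p = 0.447). Of 7 other genes that pass electrons to ubiquinone, 4 were positive and 3 negative, led by Gpd2 (-0.21, edgeR adjusted p = 0.224) and Sqrdl (-0.18, edgeR adjusted p = 0.416). Cytochrome c and cytochrome c1 are among 6 subunits and carriers of other names, 2 positive and 4 negative: Cycs had a log2 fold change of -0.23 (SE 0.18) and Cyc1 of 0.07 (SE 0.06).

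Of 16 genes of mitochondrial transcription and replication 9 were positive and 7 negative, with Peo1, the mitochondrial helicase, at -0.27 (edgeR adjusted p = 0.265) and Top1mt at -0.33 (edgeR adjusted p = 0.343). Of 9 tested nuclear regulators 4 were positive and 5 negative. Hcfc1, a transcriptional coregulator, had 97.0, 139 and 125 CPM in Lgmn KO and 149, 146 and 147 CPM in WT (-0.30, edgeR adjusted p = 0.277), and Ppargc1b, a coactivator of mitochondrial gene programmes, was at -0.43 (edgeR adjusted p = 0.324). Of 7 tested genes of ATP export and proton leak 5 were positive and 2 negative. Ucp2, the uncoupling protein of immune cells, had 416, 603 and 578 CPM in Lgmn KO and 397, 443 and 414 CPM in WT, with 2 of 3 Lgmn KO libraries above all WT libraries (0.35, edgeR adjusted p = 0.256). Slc25a4, an ADP/ATP carrier, was at -0.15 (edgeR adjusted p = 0.435).

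The libraries held macrophage markers, and some of these differed with the genotype. Cd68 was 3278 to 3811 CPM in Lgmn KO and 3109 to 3286 CPM in WT. Of 12 tested rows of macrophage markers, 9 had a negative log2 fold change, with Itgam in separate rows at -0.36 and 0.18. In 8 rows (66.7%) the unadjusted edgeR p was below 0.05, against 17.5% of all tested genes. C1qa, a complement component made by macrophages, was the 1 called by edgeR, with 25.4, 34.7 and 36.0 CPM in Lgmn KO and 81.4, 259 and 156 CPM in WT (log2 fold change -2.37, edgeR adjusted p = 0.0486). C1qc (-2.10) and C1qb (-2.03) of the same complement complex had edgeR adjusted p-values of 0.0575 and 0.0519, and Fcgr1 (-1.09), Csf1r (-0.74) and Adgre1 (-0.51) had 0.170, 0.0916 and 0.189.

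Heart muscle is rich in respiratory chain RNA. The 20 cardiomyocyte markers summed to 274 to 285 CPM in Lgmn KO and 294 to 308 CPM in WT, without overlap, and nearly all of this was Atp2a2, a calcium pump that many other cells also make (258 to 269 CPM in Lgmn KO and 280.3 to 291 CPM in WT, log2 fold change -0.12, edgeR adjusted p = 0.359). Fabp3 was at 10.4 to 10.8 and 8.10 to 10.8 CPM. The other 18, among them Myh6, Tnnt2 and Myl2, summed to 4.83 to 5.65 CPM in Lgmn KO and 4.83 to 5.69 CPM in WT, with 1.70 CPM as the highest single value.

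Marker sums of 4 other cell types did not overlap between the groups. The 15 T and NK cell markers summed to 0.838 to 1.79 CPM in Lgmn KO and 5.25 to 17.7 CPM in WT (1 gene, Ncr1, at 0 throughout). Of these, Trac was called lower (log2 fold change -3.80, edgeR adjusted p = 0.0465), at 0.0471 to 0.102 CPM in Lgmn KO and 0.584 to 1.34 CPM in WT. The 8 fibroblast markers summed to 45.4 to 117 CPM and 132 to 180.4 CPM, and the 7 dendritic cell markers to 3.21 to 5.09 CPM and 5.30 to 15.5 CPM (Siglech at 0). The sum of the 9 neutrophil markers was higher in Lgmn KO, at 21.5 to 23.3 CPM against 17.3 to 20.5 CPM. S100a8 was the largest part of this sum in every library. None of the 4 tested neutrophil markers was called, and they differed in sign. S100a8 (log2 fold change 0.15) and Cxcr2 (0.43) were positive, and Retnlg (-0.16) and S100a9 (-0.03) were negative. The untested Mpo, Ltf, Camp, Ngp and Ly6g, at 1.41 CPM or less, all had a higher mean in Lgmn KO. Of these, Ltf (0.395 to 0.766 CPM against 0.0417 to 0.231 CPM in WT) and Mpo (0.197 to 1.41 CPM against 0 CPM) did not overlap. The 10 endothelial markers overlapped in their sum, at 24.8 to 42.9 CPM in Lgmn KO and 37.8 to 43.5 CPM in WT, with Emcn and Tek at 0, and most of that sum was Kdr. Of the 4 tested endothelial markers, Flt1 was called lower, with 1.43, 0.919 and 1.22 CPM in Lgmn KO and 11.1, 7.40 and 6.38 CPM in WT (log2 fold change -2.79, edgeR adjusted p = 0.0150). Pecam1 (-2.52) and Esam (-1.04) had unadjusted p-values below 0.05 in the same edgeR fit, and Kdr was at 0.01 (edgeR adjusted p = 0.987). Tie1, not tested, was higher in every Lgmn KO library (0.283 to 0.409 CPM) than in every WT library (0 to 0.125 CPM). Egfl7 and Cldn5, also untested, had a higher mean in Lgmn KO, and Cdh5 a lower one. The sums of 6 smooth muscle cell and pericyte markers and of 6 B cell markers overlapped. The part of these marker differences, macrophage markers included, in the member levels was not tested.

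Some member levels are uncertain by construction. Of the 92 nuclear members, 18 have near-identical copies among the annotated transcripts of other genes (at least 95% identity over at least 50% of the transcript), 33 copies in all. Copies without an annotated transcript were not searched for. A copy of Atp5h was given 7148 counts beside 6471 for the gene, and that of Cox5b 5230 beside 9937. That of Ndufs5 took 1523 counts beside 3255. Copies of Atp5l took 304 counts beside 481, and that of Cox7c 124 beside 495. The median level of the 18 was 21.0 FPKM and of the 74 without an annotated copy 20.1 FPKM. The gene length behind the deposited FPKM was a median of 1.33 times the summed exon length in GENCODE M21 over 89 nuclear members, from 0.0793 times (Atp5l) to 2.53 times (Cox6b2), so the order of levels between genes holds on the table's own lengths. Fold changes do not use these lengths.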

How the data were processed

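A single deposited table of all 6 libraries was used, and its columns were assigned to samples through the titles. It gives counts and FPKM for every gene and library, per the file headers. The deposited counts are whole numbers and were taken as raw counts. In all of the 9082 well-counted genes compared, the deposited FPKM equals count over a fixed length over the column total, within 0.5 bases. The authors' log2 fold change, p-value and q-value are deposited too, and only the q-value was counted. HISAT2, TopHat2 2.0.9, TopHat and the human build hg38 are named in the submitters' processing notes, while the table's genes and positions are those of mouse: all 105 members are in GENCODE M21 (GRCm38), 76 with the same start and end. The sources used here name neither the read counter nor its strand setting.

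Counts were filtered with filterByExpr, scaled with TMM factors and tested over the whole table with edgeR 4.0.16 in R 4.3.3 (glmQLFit, glmQLFTest, genotype as the only term). Called means an adjusted p (Benjamini-Hochberg) below 0.05. Intervals are 95% intervals of the fitted fold change. Copies were found by megablast of transcripts. Alternatives were DESeq2 1.42.0, its size factors, limma 3.58.1 with sample weights, no filter, scaling without mitochondrial genes, a replicate block and leaving out each library. Named genes are Lgmn, all mitochondrial members, isoform groups, members of highest FPKM or smallest p in each complex, the largest changes, and 2 genes of smallest p in each pathway list. Other genes named were chosen after their values were seen. The members and lists were chosen with earlier results of these data known.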

Additional observations from a re-analysis of the deposited data

How the results depend on the processing

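Between 0 and 2 respiratory chain genes were called under every setting run: edgeR and limma settings called 0, and DESeq2 called 2, Sdha and Cox7a2l. Of 559 values of 43 named tested members under these settings, 557 stayed on their side of the threshold, and 47 uncalled values changed sign. The count of all genes called was 99. It was 804 with DESeq2, 318 with no filter on low counts, 340 with limma and sample weights, and 6 to 639 when 1 library was left out. Leaving out 1 library gave 0 members called each time, a median log2 fold change of -0.0726 to 0.0206 in the nuclear subunits and of -0.192 to 0.0044 in the mitochondrial genes, and a difference in the mitochondrial share of counts of -0.274 to -0.0225 percentage points (-0.108 with all libraries). The causes were not tested.

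Replicate numbers 1 and 2 occur in both groups, and same-numbered libraries had correlations of 0.122 and 0.0757 in their deviations from the group means, with nothing in the labels to say that a number marks a shared source. With the replicate number as a block, over those 4 libraries, 33 genes were called and 0 members. The same 4 libraries without the block, a setting chosen after seeing the data, gave 4 genes and 0 members. The share of mitochondrial counts with another denominator, without mitochondrial ribosomal and transfer RNA, was not run. Depth limits Cox4i2, Cox7b2 and Cox8c to a bound, and 3 libraries a group limit the 11 members whose intervals pass 1.5-fold.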
